A study of Mus musculus with 8 samples.

Results

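The genes described here are 44 genes of the cell cycle and of DNA replication from a list by name: the D-type, E-type, A-type and B-type cyclins and their kinases, inhibitors of those kinases, E2F factors and Myc, the MCM helicase and Pcna, enzymes of deoxynucleotide synthesis, and genes of mitosis such as Mki67, Top2a and the Aurora kinases. A member was measured through 1 probe set, the one of highest mean over the 8 arrays among those that the platform annotation gives a single gene symbol. By that rule 43 of the 44 members were measured, of 18193 genes in all, and Ccnb1 was not. The filter on low values (a second-highest array of 3.16 or more, which is the median over the whole table) left 38 members, of 12540 genes, for testing. Tyms, Aurkb, Plk1, Kif20a and Cenpe did not pass it, so the 38 are not all members.

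The RNA came from mouse peritoneal macrophages, collected after an injection of thioglycollate, an irritant that draws monocytes into the peritoneal cavity, where they become macrophages. The cells were from wild-type mice or from mice labelled Zc3h12a-/-, which lack the gene of an endoribonuclease, also called Regnase-1, that degrades inflammatory mRNAs. Each genotype was left unstimulated (0 h) or given LPS, the bacterial cell wall component that activates Toll-like receptor 4, at 100 ng/ml for 1, 2 or 4 h, with 1 array for each genotype and time and so 8 arrays in all. Thioglycollate elicitation was shared by all groups. The strain background, the age and the number of animals behind each array were not given in the sources used here, and the constitutive or cell-restricted nature of the deletion was not stated either.

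A cell enters the division cycle when D-type cyclins with Cdk4 and Cdk6, and then cyclin E with Cdk2, inactivate the retinoblastoma protein and release E2F factors, which turn on the genes of DNA replication. The CDK inhibitors p21, p27 and p18 hold these kinases back, and Cdk1 with cyclins A and B later drives mitosis. Elicited macrophages divide little in culture, and LPS is known to stop the proliferation that growth factors induce in macrophages. Messenger RNAs of immediate-early genes such as Myc rise and decay within hours of a stimulus.

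All values are log2 expression values as deposited, and a difference of 1 is a change of 2-fold. A level is read only within a gene, since probe sets differ in brightness. The brightest of 27 bacterial control probe sets, which no mouse RNA should bind, lay between 2.96 and 3.26 on the 8 arrays and served as the background. Of the 43 measured members, 27 were above it on all 8 arrays, 14 on some and 2, Aurkb and Kif20a, on none. The replication machinery (7 of 7) and the CDK inhibitors (3 of 3) were above it on every array, against 5 of the 15 genes of mitosis and chromosome segregation. On its brighter probe set the targeted gene, Zc3h12a, read 6.12, 8.02, 8.87 and 8.57 in wild-type cells at 0, 1, 2 and 4 h and 6.73, 7.70, 8.75 and 8.50 in cells labelled knockout. It therefore did not separate the genotypes, and where its probes lie relative to the deleted part was not given in the sources used here, so that probe set does not check the labels and every genotype direction below rests on them.

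Each time of stimulation was compared with 0 h in one additive model of time and genotype (limma, Benjamini-Hochberg adjustment over 12540 genes, threshold 0.05), so an LPS change is the mean of both genotypes and has 2 arrays on each side. The 1, 2 and 4 h changes share the 0 h arrays. After 1 h, 4 of the 38 members passed the test, 3 higher and 1 lower, where 10.5% of all genes passed (3.85% higher and 6.62% lower). After 2 h, 15 passed, 3 higher and 12 lower, where 41.8% of all genes passed (12.0% higher and 29.8% lower). After 4 h, 21 passed, 5 higher and 16 lower, where 43.8% of all genes passed (14.4% higher and 29.4% lower). The members' median change was -0.13 at 1 h, -0.35 at 2 h and -0.34 at 4 h, beside -0.09, -0.16 and -0.12 over all genes. The members' share of calls was thus 10.5%, 39.5% and 55.3% at 1, 2 and 4 h with the deposited values. It was close to that of all genes at 1 and 2 h and above it at 4 h. The difference was not tested and, as given below, depended on the scaling between arrays.

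**Figure D1:**
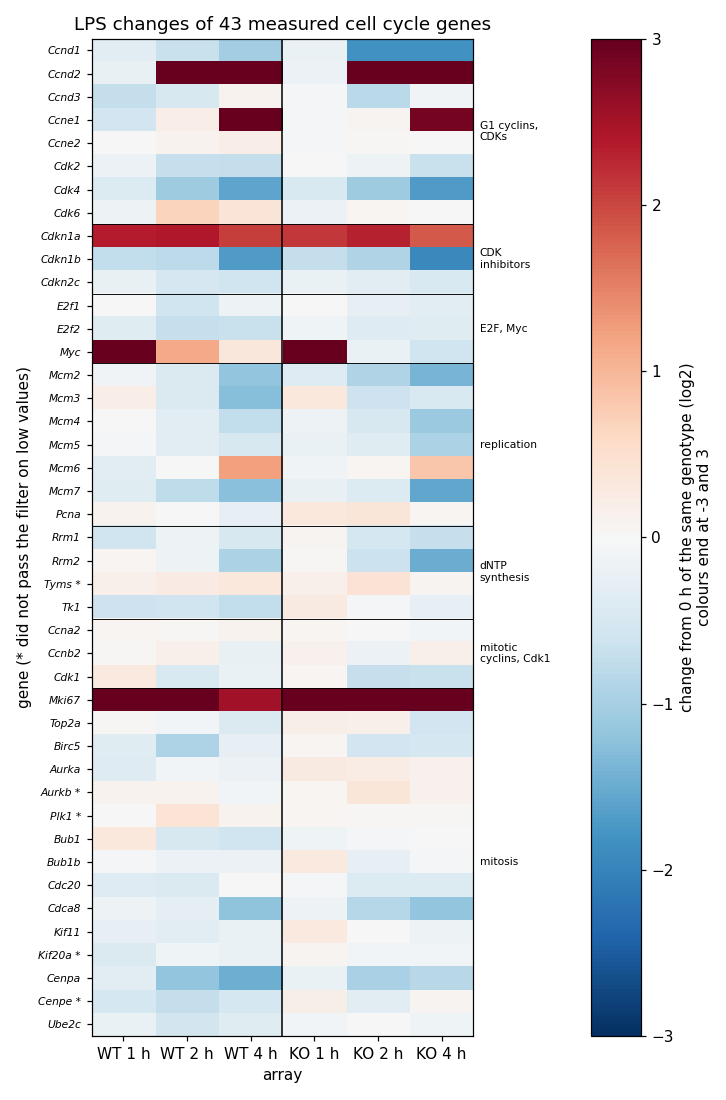
Change of each of the 43 measured members from 0 h of the same genotype, in log2 units, by gene (rows, ordered by role) and by hours of LPS in wild-type and labelled knockout cells (columns); colours end at 3 in either direction, and an asterisk marks the 5 members that did not pass the filter on low values. Mki67, Myc, Ccnd2, Ccne1 and Cdkn1a carry the strong rises, while Cdk4, Cdkn1b, Mcm2 and Mcm7 fell by 4 h.

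How many members counted as lower depended on the scaling between arrays. At 2 h the split was 3 higher and 12 lower with the deposited values, 4 and 7 after cyclic loess, and 7 and 3 after centring each array on 10 housekeeping genes. At 4 h it was 5 and 16, 5 and 12, and 14 and 7 in the same order. Over all 12540 genes it was 1499 and 3740, 1878 and 2865, and 4152 and 1874 at 2 h. At 4 h it was 1809 and 3689, 2197 and 3052, and 7312 and 1475 over all genes. The members called at 4 h were thus 21, 17 and 21 of 38 under the 3 scalings, beside 43.8%, 41.9% and 70.1% of all genes. With the median level of the housekeeping genes on each array as the centre, the median change over all genes at 4 h was 0.52 in place of -0.12. With the deposited values 4 of those 10 genes were themselves called lower at 4 h, and the median of their changes was -0.19. This centring shifts all genes by the same amount, so that the 4 h change of Ccnd2 became 7.21 and those of Cdk4, Cdkn1b, Mcm2, Mcm7, Rrm2, Cdca8 and Cenpa became -1.01, -1.18, -0.65, -0.78, -0.58, -0.57 and -0.51. Under all 3 scalings the calls at 4 h were the rises of Ccnd2, Ccne1, Cdkn1a, Mcm6 and Mki67 and the falls of Cdca8, Cdk4, Cdkn1b, Cenpa, Mcm2, Mcm7 and Rrm2. Under all 3 at 2 h they were the rises of Ccnd2, Cdkn1a and Mki67 and the falls of Cdk4, Cdkn1b and Cenpa, and every other fall named at 2 or 4 h lost its call in at least 1 of them. A measure of RNA integrity moved with time as well: the signal of the Actb control at its 3' end exceeded that at its 5' end by 2.64 and 3.11 at 0 h (wild type, then labelled knockout) and by 2.16 and 2.30 at 4 h, in log2 units. The same quantity for the Gapdh control was 3.01 and 3.31 at 0 h and 2.98 and 2.90 at 4 h. The part of RNA integrity in the changes was not tested.

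Among the cyclins that open G1, Ccnd2, a D-type cyclin, rose the most of all members. It read 3.92, 3.70, 8.08 and 10.50 in wild-type cells at 0, 1, 2 and 4 h. In labelled knockout cells it read 3.89, 3.72, 7.79 and 10.46. The 0 and 1 h arrays lay together just above background and the 2 and 4 h arrays far above them in both genotypes, with no overlap. The rise over 0 h was 4.03 at 2 h (SE 0.12, 16.3-fold, limma adjusted p = 1.08e-05) and 6.58 at 4 h (SE 0.12, 95.5-fold, adjusted p = 3.85e-06). The other Ccnd2 probe sets that were above background on all arrays changed by 3.89 and 2.99 at 2 h and by 5.54 and 3.04 at 4 h in the mean of both genotypes. With the mean of all 7 Ccnd2 probe sets the rise was 1.93 at 2 h and 4.39 at 4 h and still passed, so its size depends on the probe set.

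Ccnd1, the D-type cyclin that growth factors induce in many cells, moved the other way. Its level was 6.95, 6.61, 6.28 and 5.92 in wild-type cells and 6.55, 6.36, 4.73 and 4.74 in labelled knockout cells at 0, 1, 2 and 4 h. Both genotypes were highest at 0 h, and the 2 and 4 h arrays lay below both 0 h arrays. It fell by 1.24 at 2 h (SE 0.32, adjusted p = 0.0223) and by 1.42 at 4 h (SE 0.32, adjusted p = 0.0122). Both calls were lost when labelled knockout 0 h was left out, the 2 h call also without labelled knockout 2 h (adjusted p up to 0.146) and the 4 h call also without labelled knockout 4 h (adjusted p up to 0.0963). With all Ccnd1 probe sets averaged the changes were -0.48 and -0.63 and still passed. Ccnd3, the remaining D-type cyclin, ranged from 3.35 to 4.16 in wild-type cells and from 3.18 to 4.00 in labelled knockout cells and did not pass at any time.

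Ccne1, the E-type cyclin that activates Cdk2 at the entry into S phase, rose late. Wild-type cells gave 4.27, 3.69, 4.47 and 7.55 and labelled knockout cells 4.21, 4.17, 4.30 and 7.09 at 0, 1, 2 and 4 h. The 6 arrays up to 2 h lay between 3.69 and 4.47, and both 4 h arrays stood clear of them. The rise at 4 h was 3.08 (SE 0.22, 8.46-fold, adjusted p = 0.000106). Ccne2, the other E-type cyclin, stayed between 3.82 and 4.04 over the 8 arrays, and its changes did not pass.

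Of the kinases, Cdk4, partner of the D-type cyclins, fell at 2 and 4 h. It read 9.02, 8.62, 7.95 and 7.45 in wild-type cells and 9.03, 8.57, 7.98 and 7.32 in labelled knockout cells. In each genotype each time was below the one before it. The fall was 1.06 at 2 h (SE 0.11, adjusted p = 0.000653), that is 2.09-fold, and 1.64 at 4 h (SE 0.11, adjusted p = 7.8e-05), that is 3.12-fold. Cdk2, partner of cyclin E, read 5.31, 5.12, 4.62 and 4.60 in wild-type cells and 4.88, 4.86, 4.73 and 4.20 in labelled knockout cells. Both genotypes were lowest at 4 h, where Cdk2 fell by 0.69 (SE 0.16, adjusted p = 0.0124), a call lost without wild type 0 h or labelled knockout 4 h (adjusted p up to 0.0975). Centred on the housekeeping genes, the 4 h change of Cdk2 was -0.06 and did not pass. Cdk6, which also binds D-type cyclins, ranged from 6.87 to 7.69 in wild-type cells and from 6.86 to 7.10 in labelled knockout cells. None of the Cdk6 changes passed.

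**Figure D2:**
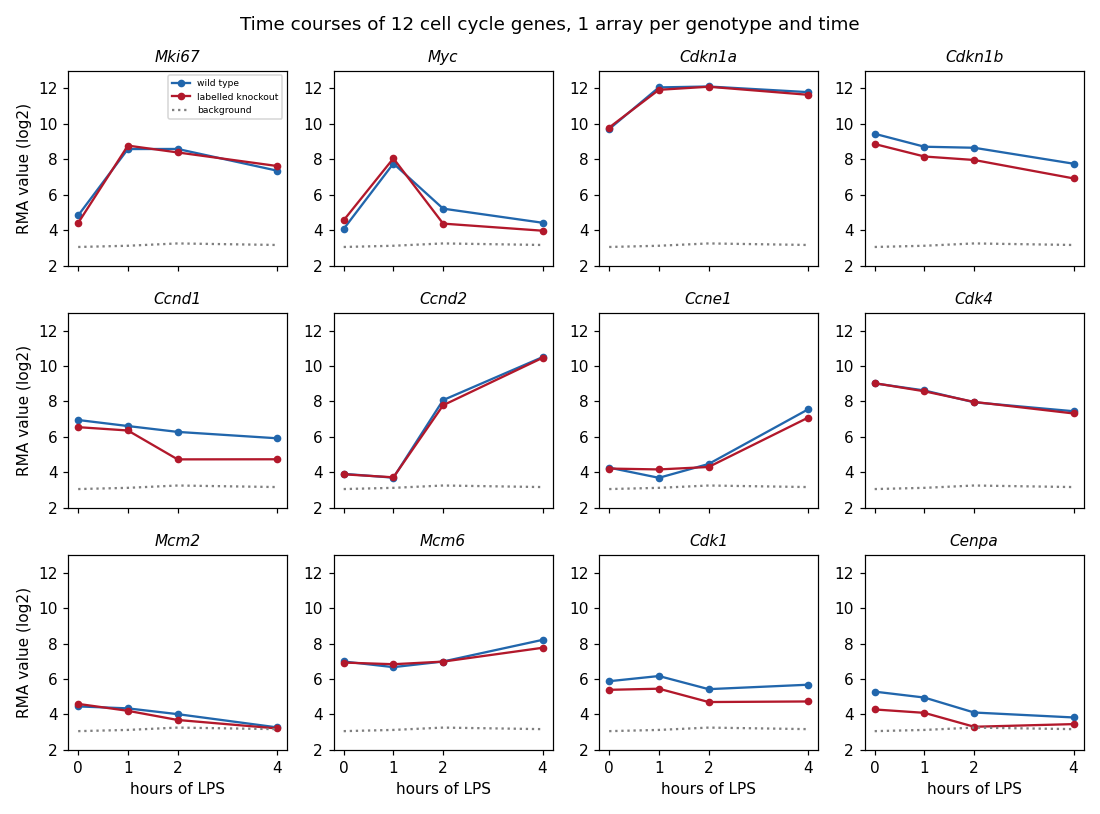
Log2 expression value (vertical axis) against hours of LPS (horizontal axis) for 12 members, with wild type in blue, labelled knockout in red, 1 array per point, and the background as a dotted line. Ccnd2 and Ccne1 climb after 1 h to 10.50 and 7.55 in wild-type cells at 4 h, Mki67 and Myc are already high at 1 h, and Cdk4 and Cdkn1b decline.

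The 3 CDK inhibitors split. Cdkn1a, which encodes p21 and is a target of p53, was 9.71, 12.06, 12.11 and 11.79 in wild-type cells at 0, 1, 2 and 4 h and 9.80, 11.93, 12.10 and 11.64 in labelled knockout cells. All 6 stimulated arrays lay above both unstimulated ones. The rise was 2.24 at 1 h (SE 0.11, 4.72-fold, adjusted p = 0.00016), 2.35 at 2 h (SE 0.11, 5.1-fold, adjusted p = 5.79e-05) and 1.97 at 4 h (SE 0.11, 3.91-fold, adjusted p = 5.32e-05). A dimmer second probe set rose by 2.91, 3.31 and 3.01 at the same times.

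Cdkn1b, which encodes p27, an inhibitor typical of resting cells, fell at every time. It read 9.45, 8.71, 8.66 and 7.76 in wild-type cells and 8.87, 8.16, 7.97 and 6.93 in labelled knockout cells. Each genotype was highest at 0 h and lowest at 4 h, and labelled knockout was below wild type at all 4 times. The fall was 0.72 at 1 h (SE 0.12, adjusted p = 0.0147), 0.84 at 2 h (SE 0.12, adjusted p = 0.00228) and 1.81 at 4 h (SE 0.12, 3.52-fold, adjusted p = 7.97e-05). Leaving out wild type 0 h, wild type 1 h or labelled knockout 0 h ended the 1 h call (adjusted p up to 0.114), and with all Cdkn1b probe sets averaged the 4 h change was -1.17. Cdkn2c, which encodes p18, an inhibitor of Cdk4 and Cdk6, was 4.03, 3.80, 3.53 and 3.44 in wild-type cells and 3.81, 3.62, 3.48 and 3.34 in labelled knockout cells. It fell by 0.41 at 2 h (adjusted p = 0.0233) and by 0.53 at 4 h (adjusted p = 0.00825), but centring on the housekeeping genes turned the 4 h change to 0.10. The 2 h call did not survive leaving out any of the 4 arrays at 0 and 2 h (adjusted p up to 0.148), nor the 4 h call leaving out wild type 0 h or 4 h (adjusted p up to 0.0691).

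Myc, the transcription factor that drives growth and cell cycle entry, gave a short peak. Wild-type cells read 4.08, 7.77, 5.22 and 4.42 and labelled knockout cells 4.56, 8.06, 4.38 and 3.98 at 0, 1, 2 and 4 h. Both 1 h arrays stood above all others, and by 4 h the level was within 0.59 of 0 h in each genotype. The rise at 1 h was 3.59 (SE 0.32, 12.1-fold, adjusted p = 0.00139), and the changes at 2 and 4 h did not pass. E2f1 and E2f2, activating E2F factors, were near background: E2f1 was above it on 5 arrays and ranged from 2.97 to 3.56, and no change of it passed. E2f2 read 3.60, 3.24, 2.92 and 2.92 in wild-type cells and 3.29, 3.15, 2.90 and 2.93 in labelled knockout cells, and was at background on all 2 and 4 h arrays. Its fitted differences of -0.54 at 2 h (adjusted p = 0.0145) and -0.52 at 4 h (adjusted p = 0.0144) passed, but with both later groups at background they are read only as a decrease of at least 0.21 and 0.35 on the log2 scale. Centring on the housekeeping genes turned the 4 h value to 0.11. Leaving out wild type 0 h ended both calls, and so did leaving out either array of 2 h for the first and wild type 4 h for the second (adjusted p up to 0.11 and 0.112).

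The MCM proteins together form the helicase that is loaded at replication origins, and their genes did not move as a unit at 4 h. With the deposited values Mcm2, Mcm3, Mcm4, Mcm5 and Mcm7 fell and Mcm6 rose. Mcm2 read 4.45, 4.34, 4.02 and 3.27 in wild-type cells at 0, 1, 2 and 4 h and 4.60, 4.20, 3.69 and 3.21 in labelled knockout cells. Its 4 h values lay near the backgrounds of 3.02 and 3.17, which limits the size of its fall. Mcm7 read 6.34, 5.97, 5.58 and 5.09 in wild-type cells and 6.59, 6.36, 6.17 and 5.02 in labelled knockout cells. Mcm6 read 6.99, 6.67, 6.99 and 8.21 in wild-type cells and 6.93, 6.83, 6.98 and 7.76 in labelled knockout cells. For Mcm2 and Mcm7 the 4 h arrays were the lowest of each genotype, for Mcm6 the highest, and for none of them did the 4 h and 0 h arrays overlap. At 4 h Mcm2 fell by 1.28 (SE 0.14, adjusted p = 0.000568), Mcm7 fell by 1.41 (SE 0.17, adjusted p = 0.000882) and Mcm6 rose by 1.03 (SE 0.16, 2.04-fold, adjusted p = 0.00276). A second Mcm6 probe set rose by 1.20 at 4 h in the mean of both genotypes, and another, between 3.46 and 3.73 on the 8 arrays, changed by 0.03.

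Of the other subunits, Mcm4 read 7.24, 7.22, 6.91 and 6.50 in wild-type cells and 7.50, 7.35, 7.02 and 6.38 in labelled knockout cells, and Mcm5 read 6.57, 6.52, 6.23 and 6.09 in wild-type cells and 6.64, 6.43, 6.28 and 5.69 in labelled knockout cells. Both were lowest at 4 h in each genotype, and so was Mcm3 in wild-type cells, whereas labelled knockout cells had their lowest Mcm3 value at 2 h. Mcm4 fell by 0.93 (SE 0.13, adjusted p = 0.00147), Mcm5 by 0.71 (SE 0.14, adjusted p = 0.00787) and Mcm3 by 0.87 (SE 0.24, adjusted p = 0.0256) at 4 h. After centring on the housekeeping genes these changes of Mcm4, Mcm5 and Mcm3 were -0.30, -0.08 and -0.24, and none passed. Leaving out labelled knockout 0 h ended the calls of Mcm5 (adjusted p = 0.0668) and Mcm3, and the latter was also lost without wild type 0 h or 4 h (adjusted p up to 0.155). At 2 h the falls of Mcm2 by 0.67, Mcm4 by 0.40 and Mcm7 by 0.59 had passed (adjusted p = 0.01, 0.044 and 0.0329), and all of these were lost when single arrays were left out. Mcm2 lost its 2 h call without labelled knockout 0 h or 2 h (adjusted p up to 0.076), Mcm7 without either 0 h array or wild type 2 h (adjusted p up to 0.186), and Mcm4 without any one of the 6 arrays of 0, 1 and 2 h (adjusted p up to 0.241). Pcna, the sliding clamp that holds DNA polymerases on the template, read between 10.75 and 11.17 on the 8 arrays and did not pass at any time.

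The promoters of Mcm2, Mcm5 and Mcm6 are shown because these subunits went opposite ways at 4 h with the deposited values. Each run gives the 200 bases before the RefSeq transcription start (GRCm38.p6), 5' to 3' on the gene's strand, with capitals on every match, on either strand, to an E2F-type motif (TTTNGCGC), the CCAAT box (CCAAT) or the core of the cell cycle homology region (TTTGAA). The Mcm2 window is chr6:88898781-88898980 (minus strand), the Mcm5 window chr8:75109309-75109508 (plus strand) and the Mcm6 window chr1:128359706-128359905 (minus strand).
Mcm2: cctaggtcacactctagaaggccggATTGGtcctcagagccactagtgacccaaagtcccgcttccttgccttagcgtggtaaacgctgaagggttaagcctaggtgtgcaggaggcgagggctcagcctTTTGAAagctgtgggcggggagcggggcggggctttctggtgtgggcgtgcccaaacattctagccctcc
Mcm5: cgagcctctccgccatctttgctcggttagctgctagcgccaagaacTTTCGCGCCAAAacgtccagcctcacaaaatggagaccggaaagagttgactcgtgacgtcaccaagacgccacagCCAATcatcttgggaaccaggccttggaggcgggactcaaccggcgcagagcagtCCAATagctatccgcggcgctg
Mcm6: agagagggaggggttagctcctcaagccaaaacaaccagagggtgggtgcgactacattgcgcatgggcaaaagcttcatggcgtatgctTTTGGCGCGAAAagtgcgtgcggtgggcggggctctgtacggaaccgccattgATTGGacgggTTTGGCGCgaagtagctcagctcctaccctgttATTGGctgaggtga
Mcm5 and Mcm6 both hold the E2F-type motif, as a pair of matches on opposite strands that overlap (from -153 and -149 in Mcm5, from -110 and -106 in Mcm6). Mcm6 holds another at -47. Mcm6 rose under all 3 scalings, whereas the Mcm5 change after centring on the housekeeping genes was -0.08 and did not pass. CCAAT matches lay at -77 and -22 in Mcm5 and at -57 and -14 in Mcm6. Mcm2 has no match to the E2F-type motif in its window and has TTTGAA at -70 with a CCAAT match at -175. Among the 36 members matched in the RefSeq promoter table (41 windows of 250 bases, since 5 members have 2), the E2F-type motif lay in 3 windows (7.32%), those of Cdk1, Mcm5 and Mcm6, beside 1.13% of all 32851 windows. CCAAT lay in 29 of the 41 (70.7%), beside 33.8% of all windows, and TTTGAA in 9 (22%), beside 16%. Ccna2, Ccnd1, Ccnd2, Ccne2, Mcm4, Aurkb, Kif20a and Myc were not matched.

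Of the 3 tested genes of deoxynucleotide synthesis, 1 fell and the others did not pass. Rrm2, the regulated small subunit of ribonucleotide reductase, read 8.71, 8.76, 8.55 and 7.76 in wild-type cells and 9.16, 9.19, 8.52 and 7.68 in labelled knockout cells at 0, 1, 2 and 4 h. Both genotypes were lowest at 4 h, where the fall was 1.21 (SE 0.17, 2.32-fold, adjusted p = 0.0018). A second Rrm2 probe set changed by -0.59 at 4 h in the mean of both genotypes, and the mean of all its probe sets by -0.60. Rrm1, the large subunit, ranged from 4.13 to 4.72 in wild-type cells and from 3.66 to 4.45 in labelled knockout cells, and none of its changes passed. Tk1, thymidine kinase, was above background on 6 arrays, between 2.82 and 3.88, and did not pass. Tyms, thymidylate synthase, did not pass the filter and lay between 2.76 and 3.33.

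Of the 11 tested genes of mitosis and chromosome segregation, Mki67 was the only one that rose. Mki67, which encodes the proliferation antigen Ki-67 that coats mitotic chromosomes, read 4.84, 8.58, 8.59 and 7.36 in wild-type cells at 0, 1, 2 and 4 h. In labelled knockout cells it read 4.42, 8.78, 8.39 and 7.63. All 6 stimulated arrays were above both unstimulated ones by more than 2 log2 units. The rise was 4.05 at 1 h (SE 0.19, 16.6-fold, adjusted p = 0.000104), 3.86 at 2 h (SE 0.19, 14.6-fold, adjusted p = 5.79e-05) and 2.87 at 4 h (SE 0.19, 7.3-fold, adjusted p = 8.22e-05). Mki67 has a single probe set in the annotation used, so no second one could be set beside this value.

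Top2a, the topoisomerase that untangles sister chromatids and that is commonly read together with Mki67 as a proliferation marker, did not rise. It read 4.28, 4.32, 4.19 and 3.84 in wild-type cells and 3.90, 4.08, 4.04 and 3.32 in labelled knockout cells. Both genotypes were lowest at 4 h, with a fitted fall of 0.51 (SE 0.13, adjusted p = 0.0196) that turned to 0.12 after centring on the housekeeping genes and that lost its call without wild type 0 h, labelled knockout 0 h or labelled knockout 4 h (adjusted p up to 0.121). Their promoters are shown because both hold the elements usual for genes of G2 and mitosis, with the same coding of capitals as for the MCM genes. The Mki67 window is chr7:135716380-135716579 (minus strand) and the Top2a window chr11:99024190-99024389 (minus strand).
Mki67: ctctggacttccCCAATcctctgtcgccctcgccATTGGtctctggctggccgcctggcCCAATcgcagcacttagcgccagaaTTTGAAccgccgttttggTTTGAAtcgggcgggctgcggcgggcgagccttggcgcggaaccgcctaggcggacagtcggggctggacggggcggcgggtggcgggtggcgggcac
Top2a: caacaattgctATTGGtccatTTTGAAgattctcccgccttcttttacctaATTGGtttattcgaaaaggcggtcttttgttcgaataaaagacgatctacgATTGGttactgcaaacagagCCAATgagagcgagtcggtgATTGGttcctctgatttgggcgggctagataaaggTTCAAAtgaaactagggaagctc
The Mki67 window holds TTTGAA at -116 and -98 and 3 CCAAT matches, at -188, -166 and -141. The Top2a window holds TTTGAA at -179 and, on the other strand, at -23, and CCAAT matches at -189, -149, -98, -78 and -58. These matches describe the letters and not the binding of any factor.

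Of the measured mitotic cyclins and their kinase, only Cdk1 passed the test. It read 5.88, 6.17, 5.43 and 5.68 in wild-type cells and 5.39, 5.45, 4.70 and 4.73 in labelled knockout cells at 0, 1, 2 and 4 h. In each genotype the 2 h array was the lowest. It fell by 0.57 at 2 h (SE 0.14, adjusted p = 0.0173) and by 0.43 at 4 h (SE 0.14, adjusted p = 0.0442), and the 4 h value turned to 0.20 after centring on the housekeeping genes. The 2 h call was lost without wild type 2 h, labelled knockout 0 h or labelled knockout 2 h (adjusted p up to 0.119), and the 4 h call without any one array other than wild type 0 h and wild type 4 h (adjusted p up to 0.266). Ccna2, cyclin A, stayed between 3.85 and 4.11 on its brightest probe set and did not pass, while another of its probe sets, also above background on all arrays, had mean changes of -0.43, -0.79 and -0.69 at 1, 2 and 4 h. Ccnb2, a B-type cyclin, lay between 2.92 and 3.74 and did not pass.

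Cenpa, the histone variant that marks centromeres, and Cdca8, which encodes borealin of the chromosomal passenger complex, both fell. Cenpa read 5.29, 4.95, 4.11 and 3.83 in wild-type cells and 4.28, 4.09, 3.31 and 3.45 in labelled knockout cells. The 2 and 4 h arrays were below the 0 and 1 h arrays within each genotype. The fall was 1.08 at 2 h (SE 0.17, adjusted p = 0.0033) and 1.14 at 4 h (SE 0.17, adjusted p = 0.002), and with all probe sets of the gene averaged the changes were -0.30, which did not pass, and -0.42, which did. Cdca8 read 6.13, 5.97, 5.85 and 4.92 in wild-type cells and 6.58, 6.44, 5.74 and 5.40 in labelled knockout cells. Both genotypes were lowest at 4 h, where the fall was 1.20 (SE 0.17, adjusted p = 0.00197). Its fall of 0.56 at 2 h (adjusted p = 0.0427) and that of Birc5, survivin of the same complex, by 0.75 at 2 h (SE 0.19, adjusted p = 0.0202) also passed. Birc5 read 4.41, 4.06, 3.48 and 4.16 in wild-type cells and 3.80, 3.86, 3.23 and 3.27 in labelled knockout cells, lowest at 2 h in both. The call of Birc5 was lost without either 0 h array or wild type 2 h (adjusted p up to 0.127), and that of Cdca8 without any one array other than wild type 2 h (adjusted p up to 0.232).

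The remaining genes of mitosis were dim. Aurka, Bub1, Bub1b, Cdc20, Kif11 and Ube2c, which encode a spindle kinase, checkpoint proteins, an activator of the anaphase-promoting complex, a spindle motor and an E2 enzyme, were above background on 4 or 5 of the 8 arrays, and no LPS change of them passed. Aurkb and Kif20a were at background on all 8 arrays, and Plk1 and Cenpe were above it on 3 arrays each. In these bulk samples, fewer cells expressing a gene and less RNA of it per cell cannot be told apart.

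The genotypes were compared over all 4 times, with time in the model. Of the 38 members 5 passed, 1 higher and 4 lower in the arrays labelled knockout, where 13.5% of all genes passed (4.75% higher and 8.72% lower), so the members' share of calls was that of the genes at large. The median difference was -0.11 over the members and -0.04 over all genes. No member was called in a fit without time as a factor, where 1.2% of all genes passed. Of the lower genes, Cdk1 was below wild type at each time, by 0.72 in the fit (SE 0.10, 1.64-fold, adjusted p = 0.00772), and Cdkn1b by 0.66 (SE 0.08, 1.58-fold, adjusted p = 0.00618). Both passed in every fit that left out 1 array. For both, the 4 wild-type and the 4 labelled knockout arrays overlapped across times while the order at each time was the same.

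Cenpa was lower by 0.76 (SE 0.12, 1.7-fold, adjusted p = 0.0119), a call that was lost without either array of 0 h or of 2 h (adjusted p up to 0.0573) and when its probe sets were averaged (-0.14). Ube2c, an E2 enzyme of the anaphase-promoting complex, read 3.78, 3.59, 3.23 and 3.42 in wild-type cells and 3.11, 3.03, 3.10 and 2.99 in labelled knockout cells at 0, 1, 2 and 4 h. The genotypes did not overlap, but only 1 of the 4 labelled knockout arrays was above background. The difference was -0.45 (SE 0.11, adjusted p = 0.0422), and it lost its call after centring on the housekeeping genes and without either array of 0, 1 or 4 h (adjusted p up to 0.152).

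Mcm3, a helicase subunit, was the single member called higher in the arrays labelled knockout. It read 6.22, 6.42, 5.80 and 4.95 in wild-type cells and 6.76, 7.07, 6.15 and 6.30 in labelled knockout cells. Labelled knockout was above wild type at each time, most at 4 h. The difference was 0.72 (SE 0.17, 1.65-fold, adjusted p = 0.0389). It was lost without either array of 0, 1 or 2 h (adjusted p up to 0.106), and without the probe sets whose names mark possible cross-hybridization the difference was 0.16 and did not pass. Ccnd1 had a larger estimate, -0.85 (SE 0.23), that did not pass (adjusted p = 0.0586). Ccnd1 passed with trended, robust eBayes (adjusted p = 0.023) and without either array of 1 h (-1.05, adjusted p = 0.045), and the mean of its probe sets gave -0.43, which did not pass. Ccnd1 was below wild type at each time, by 0.40 and 0.25 at 0 and 1 h and by 1.55 and 1.18 at 2 and 4 h.

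**Figure D3:**
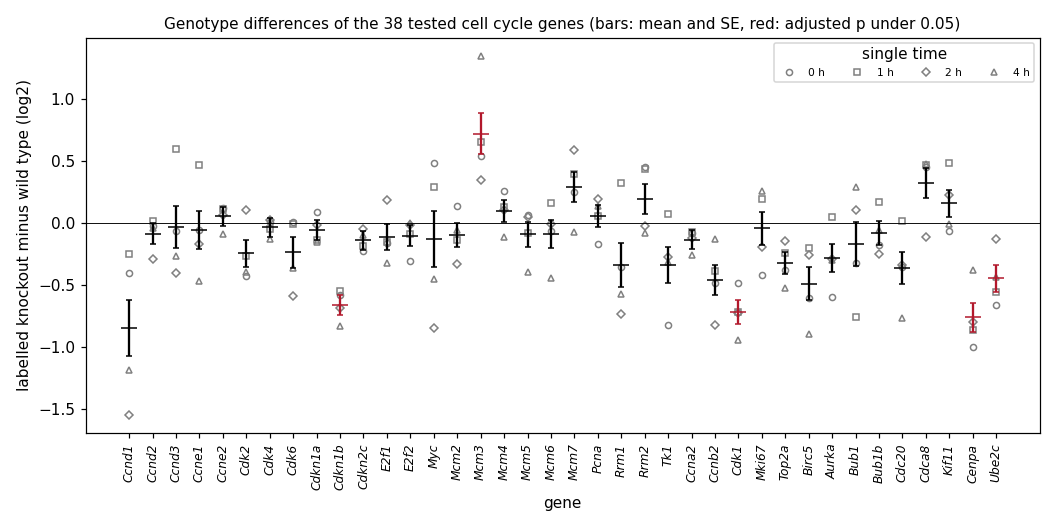
Difference between labelled knockout and wild type (vertical axis, log2 units) for the 38 tested members (horizontal axis), with 1 point for each of the 4 times and the fitted mean with its standard error; the members that passed the test are in red. The Ccnd1 estimate of -0.85 is black, as it did not pass, while Cdk1, Cdkn1b, Cenpa and Ube2c lie below 0 and Mcm3 lies above 0 at all 4 times.

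At single times, 26, 19, 27 and 32 of the 38 members were lower in the arrays labelled knockout at 0, 1, 2 and 4 h, beside 56.6%, 52.5%, 57.5% and 56.5% of all genes. Top2a, Ccna2, Ccnb2, Ccnd1, Cdk1, Cdkn1b, Cdkn2c, Birc5, Cenpa and Ube2c were lower at all 4 times (10 of 38, beside 24.5% of all genes). Mcm3 alone was higher at all 4 (1 of 38, beside 14.8%). With 1 array per genotype and time these single-time counts carry no test.

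Markers of other cells differed between the same arrays. Of 13 markers of resident peritoneal macrophages 11 were called higher in the arrays labelled knockout, and the log2 of their summed signal was 12.93 to 13.91 in wild-type arrays and 14.73 to 14.78 in labelled knockout arrays. Of 13 tested mesothelial and stromal markers 10 were called lower, with summed signals of 10.74 to 11.14 and 9.14 to 9.76, and Msln, Krt19, Krt18 and Lrrn4 were at background on all arrays. General macrophage markers gave 15.33 to 15.47 and 15.31 to 15.50, with 10 of 11 above background on all arrays and Cd163 at background on all. B cell markers gave 8.51 to 9.89 and 9.29 to 10.01 (Pax5 and Cr2 at background on all arrays), T and NK cell markers 6.59 to 6.68 and 6.85 to 7.24 (Cd3g and Cd8a at background), neutrophil markers 10.53 to 11.84 and 10.82 to 12.01 (Ltf, Elane and Cxcr2 at background), and mast cell and basophil markers 6.89 to 9.17 and 6.67 to 9.12 (Mcpt4 and Fcer1a at background). Eosinophil, dendritic cell and erythroid markers summed to between 4.83 and 6.63 on every array. The brightest gene was Saa3 for resident macrophages (12.34 to 13.93), S100a8 for neutrophils (10.39 to 11.85) and Hdc for mast cells and basophils (3.65 to 8.91). The mast cell and basophil sum was 6.67 to 7.22 at 0 h and 9.12 to 9.17 at 4 h. The neutrophil sum was 10.53 to 10.82 at 0 h and 11.84 to 12.01 at 4 h. Both sums thus moved with LPS time and do not measure cell content alone. Of the 5 tested neutrophil markers 2 were called higher in the arrays labelled knockout and none lower, and the mean level of that list was 4.25 to 4.48 in wild-type arrays and 4.78 to 5.17 in labelled knockout arrays. Of 8 tested mast cell and basophil markers 2 were called lower, and of 10 tested general macrophage markers 2 were called higher and 2 lower. The 3' to 5' excess of the Actb control was also larger in the arrays labelled knockout at each time, at 3.11, 2.61, 2.52 and 2.30 beside 2.64, 2.35, 2.43 and 2.16. That of the Gapdh control was larger in them at 0 h only, at 3.31, 2.95, 3.04 and 2.90 beside 3.01, 2.99, 3.16 and 2.98. The part of these cells and of RNA integrity in the genotype differences was not tested.

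Whether the genotype difference changed after LPS was tested as the difference between the stimulated arrays and 0 h. No member passed, and neither did any of the 12540 genes (0% called). At an unadjusted p under 0.05 there was 1 member, Tk1, whose difference was 0.65 higher after LPS (SE 0.24, adjusted p = 1.00 in limma's fit), and 434 genes in all. No member passed under any alternative that could be fitted. Myc was higher in labelled knockout than in wild-type cells at 0 and 1 h, by 0.49 and 0.29, and lower at 2 and 4 h, by 0.84 and 0.45, with a fitted change of the difference of -0.82 that did not pass. With 2 residual degrees of freedom, a p that misses the threshold does not show that the courses were alike.

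The courses of the 2 genotypes, each taken from its own 0 h array and thus with no array in common, were set against each other. The median size of the difference between the wild-type and the labelled knockout change was 0.158, 0.294 and 0.302 over the members at 1, 2 and 4 h, beside 0.195, 0.210 and 0.213 over all genes. Across the 38 members Pearson's r between the wild-type and the labelled knockout change was 0.954 at 1 h, 0.930 at 2 h and 0.966 at 4 h, beside 0.826, 0.903 and 0.920 across all genes. Spearman's rho was 0.456, 0.689 and 0.808 for the members, beside 0.563, 0.845 and 0.855, so the high r rests on the few members with strong rises. These values are across genes, which are not independent replicates. The sign of the change was shared by 31, 31 and 29 of the 38 members at the 3 times, beside 70.2%, 83.5% and 81.8% of all genes, and 24 members had their highest array at the same time in both genotypes.

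Genes of the same processes outside the 44 were read from lists. Of 45 tested genes of origin licensing, the replication fork and replication-coupled steps, 5 fell and none rose at 1 h. At 2 h 25 fell and 1 rose, and at 4 h 22 fell and 5 rose. The falls were 11.1%, 55.6% and 48.9% of the list, beside 6.62%, 29.8% and 29.4% of all genes. The list's medians were -0.57 at 2 h and -0.56 at 4 h, beside -0.16 and -0.12 over all genes. Dnmt1, the maintenance DNA methyltransferase, fell by 2.02 at 2 h (adjusted p = 6.65e-05) and by 2.46 at 4 h (adjusted p = 1.8e-05). Gins1, a subunit of the GINS complex of the replicative helicase, fell by 1.84 at 2 h (adjusted p = 0.000116), and Rfc2, of the clamp loader, by 1.45 at 4 h (adjusted p = 0.000137). Cdt1 and Gmnn, the licensing factor and its inhibitor geminin, fell by 0.94 and 0.73 at 1 h (adjusted p = 0.0195 and 0.0239), and both calls were lost without either 0 h array, among others (adjusted p up to 0.146 and 0.154). By genotype 2 of the 45 passed (4.44%, beside 13.5% of all genes), both lower in the arrays labelled knockout. They were Rfc2, by 0.43, and Prim1, the small primase subunit, by 0.35. Prim1 lost its call without any one of the 8 arrays (adjusted p up to 0.144) and Rfc2 without any one other than those of 1 h (adjusted p up to 0.0805).

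Of 49 tested other genes of mitosis, the kinetochore and cytokinesis, 1 rose and none fell at 1 h. At 2 h 2 rose and 9 fell, and at 4 h 2 rose and 11 fell. The falls were 18.4% and 22.4% of the list at 2 and 4 h, beside 29.8% and 29.4% of all genes. The list's medians were -0.13 and -0.11, beside -0.16 and -0.12 over all genes. Cks2, a small subunit that binds CDKs, rose by 1.82 at 1 h (adjusted p = 0.000296) and by 1.20 at 2 h (adjusted p = 0.000474). Incenp, the scaffold of the chromosomal passenger complex, fell by 2.27 at 2 h and was still lower at 4 h (-1.69), and Ncapg2, a condensin II subunit, fell by 3.08 at 4 h. By genotype 1 was higher and 5 were lower in the arrays labelled knockout (12.2% called, beside 13.5% of all genes). Cks2 was lower by 0.73 (limma adjusted p = 0.00352) and Stmn1, a microtubule-destabilizing protein, by 0.69 (adjusted p = 0.00579). Without the probe sets whose names mark possible cross-hybridization the Stmn1 difference was -0.40 and did not pass (adjusted p = 0.0584), and the mean of all Incenp probe sets changed by -0.90 and -0.68 at 2 and 4 h. Of 18 tested genes of the anaphase-promoting complex and SCF ubiquitin ligases, 2, 10 and 6 fell at 1, 2 and 4 h and 0, 0 and 2 rose. The falls were 11.1%, 55.6% and 33.3% of that list, beside 6.62%, 29.8% and 29.4% of all genes. Skp2, the F-box protein that targets p27 for degradation, fell by 1.44 at 1 h (adjusted p = 0.00507; -0.56 with its probe sets averaged), and Fbxw7, which targets cyclin E and Myc, fell by 1.52 at 2 h (adjusted p = 0.00121).

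Among 18 tested other CDK inhibitors, pocket proteins and E2F genes, 1, 2 and 5 rose and 1, 5 and 6 fell at 1, 2 and 4 h. At 4 h 27.8% of them rose and 33.3% fell, beside 14.4% and 29.4% of all genes. E2f8, an atypical repressor, rose by 1.83 at 1 h (adjusted p = 0.00229) and by 2.97 at 2 h (adjusted p = 0.000128). E2f6, another repressor, fell by 0.85 and 1.13 at those times (adjusted p = 0.00907 and 0.000901), and its 1 h call was lost without either 0 h array or wild type 1 h (adjusted p up to 0.0909). At 4 h the pocket protein genes went opposite ways: Rbl1, which encodes p107, rose by 2.29 (adjusted p = 3.06e-05) and Rb1 fell by 2.02 (adjusted p = 6.82e-05). With all probe sets of a gene averaged these changes were 0.67 and -0.95, those of E2f8 0.87 and 1.58 and that of E2f6 at 2 h -0.47, and each still passed. By genotype 2 of the 18 were higher and 1 was lower in the arrays labelled knockout (16.7% called, beside 13.5% of all genes). The lower one, Cdkn1c, which encodes the CDK inhibitor p57, differed by -2.57 (SE 0.20, adjusted p = 0.00127). It read 6.22, 5.85, 6.03 and 5.61 in wild-type cells and 3.20, 3.98, 3.01 and 3.23 in labelled knockout cells. At 0, 2 and 4 h the labelled knockout values lay near the backgrounds of 2.96, 3.21 and 3.17, which limits the size of the difference. Cdkn2a, which encodes p16 and p19ARF, was at background on the 4 wild-type arrays, and in the arrays labelled knockout it was higher by at least 0.87 on the log2 scale (adjusted p = 0.00331).

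Around Myc, 1, 1 and 2 of 10 tested network genes rose and 1, 5 and 4 fell at 1, 2 and 4 h. Mxd1, which competes with Myc for Max, rose by 2.32 at 1 h (adjusted p = 0.00019) and by 2.88 at 4 h (adjusted p = 2.03e-05), and Mnt, another Max partner that represses Myc targets, fell by 3.87 at 2 h (adjusted p = 1.45e-05) and by 3.72 at 4 h (adjusted p = 1.13e-05). Of 20 known Myc targets of ribosome synthesis none passed at 1 h, 3 rose and 4 fell at 2 h, and 1 rose and 5 fell at 4 h, with medians of 0.07 at 2 h and -0.21 at 4 h. Of 19 tested BTG, GADD45 and p53 target genes, 7 rose and 3 fell at 1 h, 7 rose and 7 fell at 2 h, and 3 rose and 9 fell at 4 h. Btg2, an anti-proliferative immediate-early gene, rose by 4.26 at 1 h (adjusted p = 0.000994) and Mdm2, the ubiquitin ligase of p53, by 2.08 (adjusted p = 0.000367), whereas Sesn1, a stress-responsive p53 target, fell by 4.41 at 2 h (adjusted p = 4.07e-05) and by 4.39 at 4 h (adjusted p = 2.13e-05). With all probe sets of a gene averaged the changes still passed and were 3.28 for Btg2, 1.26 and 1.73 for Mxd1, -1.95 and -1.91 for Mnt, and -2.68 and -2.80 for Sesn1. Of 15 tested genes of the DNA damage checkpoint and homologous repair none passed at 1 h, 1 rose and 6 fell at 2 h, and 2 rose and 6 fell at 4 h. Of 7 tested growth factor receptors of macrophages none passed at 1 h and 1 fell at 2 h, while 1 rose and 1 fell at 4 h. At 4 h 40% of the Myc network, 25% of the ribosome targets and 47.4% of the BTG, GADD45 and p53 genes fell. So did 40% of the checkpoint and repair genes and 14.3% of the receptors. Over all genes 3.85%, 12.0% and 14.4% rose and 6.62%, 29.8% and 29.4% fell at 1, 2 and 4 h. Several of the lists' counts lie near those shares, and no list was tested as a whole.

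**Figure D4:**
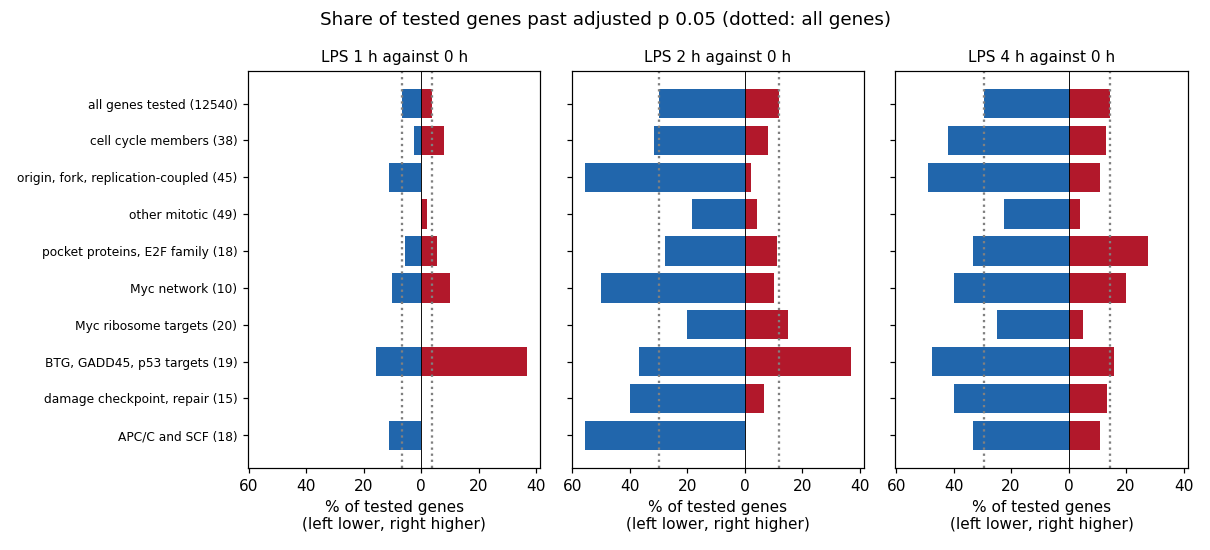
Share of the tested genes of each list (rows) called higher or lower after 1, 2 and 4 h of LPS (horizontal axis, percent, lower to the left and higher to the right), with the share over all 12540 genes as dotted lines. The origin and fork list has the 25 falls of 45 genes at 2 h, above the 29.8% of all genes, and the BTG, GADD45 and p53 list has 7 rises of 19 at 1 h, beside 3.85% of all genes.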

How the data were processed

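RNA of the 8 cell samples was amplified, labelled with biotin and hybridised to Affymetrix mouse arrays, 1 array per sample. The deposited values are log2 expression values that the authors made with RMA (per the submitters' processing notes; its version and settings were not given in the sources used here), a method that corrects background, sets all arrays to one distribution and turns the probes of each set into 1 value. The deposited column medians lay between 3.14 and 3.21. Quantile normalization of this kind can hide a shift shared by most genes, and with 1 array per genotype and time the number of arrays limits the precision.

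Of 45101 probe sets, 34945 carried 1 gene symbol in the platform annotation, 932 several, and 9224 were controls or unnamed. A gene was read from its single-symbol probe set of highest mean, and 12540 genes whose second-highest array reached 3.16 were tested. Background was the highest of 27 bacterial control probe sets of each array, a rule chosen after seeing the data. limma 3.58.1 (R 4.3.3) fitted time and genotype additively, with 3 residual degrees of freedom, and, for a changed genotype difference, genotype by LPS with 2, using eBayes and Benjamini-Hochberg adjustment at 0.05. Where a group was at background on all its arrays, its level was raised to the background and the difference is given as "at least".

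The p-values measure only the spread between these arrays, which the labels do not tie to separate animals. The text may name every member, the 2 genes of smallest p past the threshold in each pathway list and comparison, and the 2 brightest genes of each cell marker list; Zc3h12a was read on each probe set. Other marker genes, the genes listed as at background, were named after their values were seen. The members and lists were chosen with earlier results of these data known. The fits were tested on simulated data. Alternatives were 2 other scalings (cyclic loess, and centring on 10 housekeeping genes), 2 other filters, the mean of all probe sets or leaving out those ending in _x_at and _s_at, trended and robust eBayes, no time factor for genotype, and leaving out each array. Promoters came from RefSeq (GRCm38.p6), matched by symbol for 36 of the 44 members, and were searched over 250 bases before the start in Python 3.11.15.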

Additional observations from a re-analysis of the deposited data

Results flagged for a closer look

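For Aurka, which encodes a spindle kinase, all 3 stimulated wild-type arrays were below wild type 0 h, by a mean of -0.21, and all 3 stimulated arrays labelled knockout were above labelled knockout 0 h, by a mean of 0.21. These mean differences are 0.42 apart on the log2 scale, and limma's test of that gap did not pass (adjusted p of 1.00). Aurka was above background on 4 of the 8 arrays, and in the labelled knockout its values of 2.83, 3.06 and 2.96 at 0, 2 and 4 h were below the backgrounds of 2.96, 3.21 and 3.17, so no change in those cells can be read from them.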

How the results depend on the processing

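Of the 45 called values of members, 20 kept their call under every alternative in which the gene was tested. Among their 667 alternative values, 553 kept direction and call, 110 kept the direction and lost the call, and 4 turned. After centring on the housekeeping genes the 4 h change was 0.20 for Cdk1, 0.10 for Cdkn2c, 0.11 for E2f2 and 0.12 for Top2a. Not all of the 667 are separate checks, since leaving out either array of a time gave the same genotype fit. The same holds for an LPS change when either array of another stimulated time is left out. Mcm7 and Cdca8 were not tested without the _x_at and _s_at probe sets. For either gene the probe set that remained was above background on 1 array and did not reach the filter. After centring on the housekeeping genes the median over all genes was 0.10, 0.21 and 0.52 at 1, 2 and 4 h. That centring used the median level of those 10 genes on each array. The median of their changes with the deposited values was smaller in size, at -0.15, -0.13 and -0.19. Which scaling is right was not tested. The genotype count of 5 became 8 with trended, robust eBayes, where 18.7% of all genes passed. Without the time factor, whose variance then stays in the residual, it became 0, where 1.2% passed. Leaving out single arrays gave 2 to 5 members for genotype (2 when an array of 0 h was left out, 3 when one of 2 h was), 3 to 4 at 1 h, 7 to 15 at 2 h (7 without labelled knockout 0 h, 9 without wild type 0 h or 2 h) and 16 to 21 at 4 h; an LPS time without 1 of its arrays rests on the other, which is assumed to vary like the rest. The count of 0 for a changed genotype difference held under each alternative that could be fitted; without a 0 h array it could not be. Arrays were matched by time through the time factor. Beyond that pairing by time, no block by replicate could be set, because the labels give no replicate numbers. Signals near background limit E2f1, E2f2, Tk1 and most mitotic genes.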
